A study of Mus musculus with 4 samples.

Results

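The genes described here are 30 mouse genes of sterol synthesis and sterol sensing, taken by symbol from the 55401 gene models of the files, and all 30 were found and passed the filter on low counts. They comprise 18 enzymes that build cholesterol from acetyl-CoA, 5 genes of the SREBP sensing machinery, 3 genes of the LXR branch, 3 sterol carriers and 1 esterifying enzyme. RNA-seq had been run on blood-forming cells sorted from mouse bone marrow to ask what loss of Cpt1a, the outer-membrane transferase that lets long-chain fatty acids enter mitochondria, does to gene expression. The KO group (genotype label Cpt1a-KO) held 2 libraries from mice with floxed Cpt1a alleles and Vav1-Cre, and the Control group (genotype label WT) held 2 libraries, which the study describes as Cpt1a fl/fl. Floxed alleles were thus shared by both groups, and Vav1-Cre is named for KO only. Vav1-Cre acts throughout the blood system from early development on, so the deletion was not limited to the sorted cells. The labels call the cells bone marrow HSCs (hematopoietic stem cells) and ltHSC, long-term HSC, while the study's text calls them HSPCs, a wider class that takes in progenitors. The study's methods give adult mice of a C57BL/6 background, and the labels give no age. Whether the replicates are from different mice is not in the labels. The p-values therefore describe the spread between the libraries at hand, which may be technical.

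Cells make cholesterol by condensing acetyl-CoA into mevalonate, turning mevalonate into isoprenoid units, joining these into squalene, and folding squalene into lanosterol, which is then trimmed to cholesterol. SREBP proteins are transcription factors held in the endoplasmic reticulum membrane. When membrane sterol is low they are carried by SCAP to the Golgi, cut, and sent to the nucleus, where they raise the synthesis genes, and INSIG proteins hold SCAP back when sterol is plentiful. LXR receptors work in the other direction: they bind oxidized sterols and raise genes of sterol export and of reduced lipoprotein uptake. Fatty acid oxidation and sterol synthesis both involve acetyl-CoA, and the comparison of KO with Control shows whether the RNA of these genes differed when Cpt1a was deleted.

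None of the 30 genes passed an adjusted p of 0.05 between KO and Control with edgeR, where 0.212% of all genes tested were lower and 0.451% higher. With DESeq2 3 did, all lower, against 3.24% of genes lower and 3.95% higher. Both tests used counts. The members' median log2 fold change was -0.0037, against 0.0087 over the 14635 genes tested. Of their values 14 were above 0 and 16 below (53.3% below, against 49.1% of all genes tested). The lowest p-values belonged to Srebf1, the gene of an SREBP factor, Mylip, a ubiquitin ligase for lipoprotein receptors, and Nsdhl, an enzyme that trims lanosterol, and these were the 3 that DESeq2 called. All 3 were lower in KO, with fitted counts at 0.75, 0.66 and 0.56 times the Control level, and Srebf1 at 0.46 times in mean TPM. Scaled counts of Srebf2, the gene of the SREBP factor that mainly drives sterol synthesis, averaged 0.999 times the Control level.

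The libraries held 34083159 and 33909781 expected counts in KO, against 20589218 and 23291747 in Control. Cpt1a was present at 11.5 and 19.2 TPM (a level scaled to library size and to gene length) in KO and at 37.0 and 35.6 TPM in Control. Its fitted counts fell to 0.33 times the Control level (log2 fold change -1.60 ± 0.152 SE, adjusted p = 0.00695, edgeR quasi-likelihood test, n = 2 each), while its mean TPM was 0.42 times. The call was lost on the scales that use effective length, with a log2 fold change of -1.28 for the length offset (adjusted p = 0.373, edgeR) and of -1.23 for log2(TPM + 1) (adjusted p = 0.425, limma). Over all alternatives the adjusted p ran from 4.75e-29 to 0.443. The ltHSC label was met only in part. Procr, the gene of EPCR, was at 31.0 and 34.8 TPM in KO and 29.5 and 55.0 TPM in Control, Hlf was at 73.0 to 86.3 TPM in the 4 libraries, and Hoxb5 was at 0.18 and 0 TPM in KO and 0.65 and 1.12 TPM in Control. Slamf1, the gene of CD150, by which long-term HSCs are gated, was at 4.83 and 2.88 TPM in KO and 4.44 and 4.41 TPM in Control. Genes of progenitors were abundant: Cd48, whose protein long-term HSCs lack, was at 159.9 and 145.9 TPM in KO and 88.0 and 80.3 TPM in Control, Flt3 at 179 to 227 TPM and Mpo at 1639 to 2959 TPM in the 4 libraries. Markers of other cells moved with genotype. With edgeR at an adjusted p under 0.05, 8 of 14 erythroid markers fell in KO (summed level 729.7 and 807.8 in KO, 1819 and 1681 in Control, in CPM, counts scaled to library size), all 9 B lineage markers rose (533.9 and 380.0, against 60.5 and 82.5), 4 of 6 mast cell markers rose (225.3 and 287.4, against 41.1 and 23.2), 3 of 6 markers of multipotent and lymphoid-primed cells rose (2390 and 2446, against 1569 and 1978), and 1 of 8 neutrophil markers fell (3610 and 4041, against 6833 and 5129). None of 14 HSC, 6 macrophage, 4 megakaryocyte and 5 cycling cell markers passed that test. DESeq2 called 12 of the erythroid markers, 3 neutrophil markers, 2 HSC markers (Mecom and Gfi1b) and 1 megakaryocyte marker (Pf4) lower. It called all 9 B lineage, 5 mast cell and 4 multipotent and lymphoid-primed markers higher, and 1 cycling cell marker (Mki67). No marker was at 0 in all 4 libraries. In bulk samples, fewer cells of a type and less RNA per cell cannot be told apart, and the part of these shifts in the members' values was not tested.

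Promoter sequence was read for the members from RefSeq windows of GRCm38.p6 that run from 250 bases before to 50 bases after a transcript start, and 25 of the 30 genes had one. Fdps, Fdft1, Sqle, Stard4 and Npc1 had none and were not searched. Among them, 1 gene had a window that held the core of the sterol regulatory element, the SREBP binding motif, searched as TCACNCCAC on both strands. That gene was Hmgcs1, 1 of 25 (4.0%), against 1.34% of the 10511 tested genes with a window. Of all 32851 windows, 1.24% held the motif. No mismatch to these letters was allowed, so variant sterol elements in the other windows would have been missed. The stretch is shown because it holds the only exact match among the 25 genes searched. It lies on the plus strand at chr13:119690191-119690290 before the transcript start, and capitals mark the match, which begins 137 bases before the start.
Hmgcs1: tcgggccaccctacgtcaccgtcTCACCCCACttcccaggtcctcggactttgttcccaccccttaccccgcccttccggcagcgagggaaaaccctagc

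CCAAT boxes (ATTGG or its reverse complement CCAAT) and GC boxes (GGGCGG on both strands), the motifs of NF-Y and of Sp1, factors known to work beside SREBP at sterol promoters, were more common. A CCAAT box was found in 21 of the 25 genes (84.0%), against 42.8% of the 10511 tested genes with a window, and a GC box in 22 of 25 (88.0%), against 67.4%. Neither motif overlaps the sterol element in the Hmgcs1 stretch. A direct repeat of AGGTCA spaced by 4 bases, the LXR motif, was searched without mismatches. It was found in none of the 25 genes and in 0.0152% of all windows. None of the 10511 tested genes with a window held it either, so this search could not set the members apart. The promoters of the 3 genes with the lowest p-values are shown from 100 bases before to 50 bases after the RefSeq start. CCAAT and GC boxes are in capitals on either strand. The promoters are those of Nsdhl (chrX:72918421-72918570, plus strand), Mylip (chr13:45389642-45389791, plus strand) and 2 of the 3 annotated starts of Srebf1 (chr11:60210422-60210571 and chr11:60220578-60220727, minus strand). The GENCODE M21 annotation starts Nsdhl at chrX:72918557, after the RefSeq start, so the last 50 bases need not all be transcribed.
Nsdhl: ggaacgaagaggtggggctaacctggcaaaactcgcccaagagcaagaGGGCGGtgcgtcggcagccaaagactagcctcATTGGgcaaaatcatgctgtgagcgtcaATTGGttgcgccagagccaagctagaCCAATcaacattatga
Mylip: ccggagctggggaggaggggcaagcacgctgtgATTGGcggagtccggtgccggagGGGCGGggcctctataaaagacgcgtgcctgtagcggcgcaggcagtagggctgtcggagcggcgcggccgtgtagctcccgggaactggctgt
Srebf1, downstream start: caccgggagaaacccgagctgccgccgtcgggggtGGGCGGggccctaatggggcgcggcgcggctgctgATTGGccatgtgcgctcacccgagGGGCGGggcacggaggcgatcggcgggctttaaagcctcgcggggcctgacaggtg
Srebf1, upstream start: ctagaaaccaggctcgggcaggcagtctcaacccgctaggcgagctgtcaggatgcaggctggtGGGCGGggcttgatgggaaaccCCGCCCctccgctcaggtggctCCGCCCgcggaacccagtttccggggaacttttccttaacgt
These matches describe the letters of the windows, and no binding was measured here. The 2 Srebf1 starts lie 10156 bases apart, and the third lies 1954 bases further upstream. Over the same 150 bases the third start, not shown, holds no CCAAT or GC box, though its full window holds 1 CCAAT box.

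The members spanned a wide range of levels. Mean TPM over the 4 libraries was highest for Srebf2, Nr1h2 and Npc2 and lowest for Hsd17b7, Nr1h3 and Mvd. In the order of levels, the ranges of every pair of neighbours overlapped, so the order between neighbours did not exceed the spread between libraries. The plot of levels gives all 4 libraries gene by gene.

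**Figure D1:**
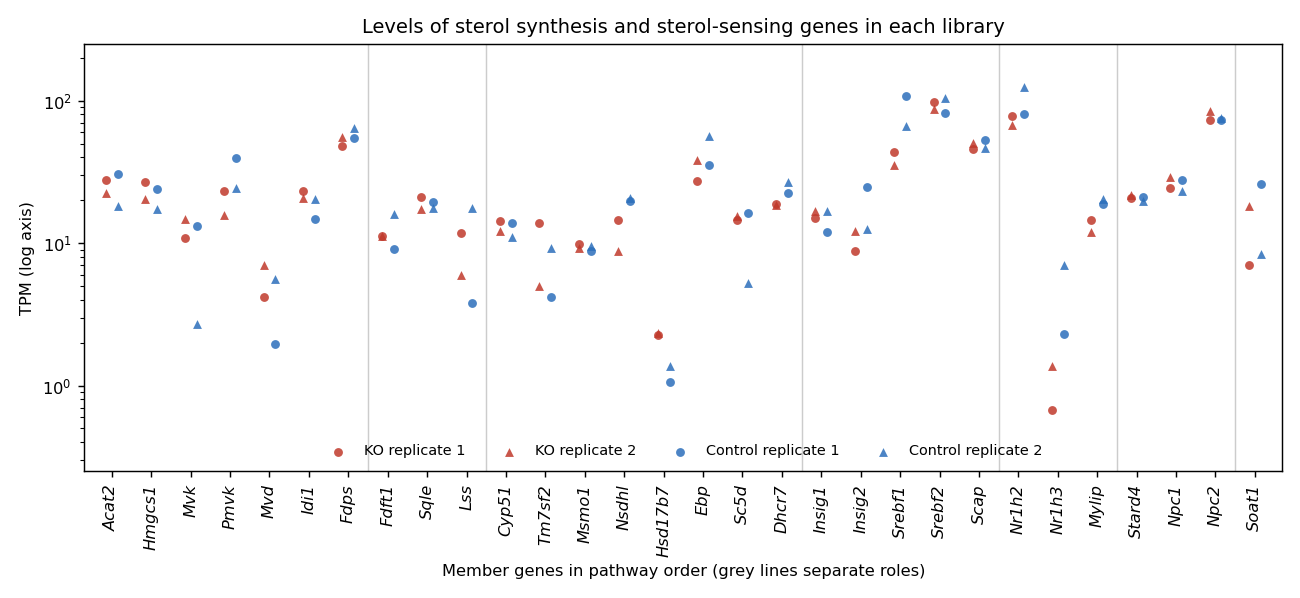
TPM on a log axis (vertical) of the 30 genes in pathway order (horizontal) in each of the 4 libraries, with KO in red left of Control in blue and the replicate given by the marker shape. Srebf2 lies between 82.4 and 105 TPM in all libraries, while Hsd17b7 stays at or below 2.35 TPM. The KO points lie below the Control points without overlap in 8 genes (Pmvk, Nsdhl, Dhcr7, Insig2, Srebf1, Nr1h2, Nr1h3 and Mylip) and above them in 2 (Idi1 and Hsd17b7). The share over all genes was counted in CPM only, at 19.3% lower and 22.7% higher.

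The mevalonate arm opens with Acat2, which joins acetyl-CoA units in the cytosol, and Hmgcs1, which adds a further unit to make HMG-CoA. Acat2 was at 27.8 and 22.7 TPM in KO, against 30.7 and 18.2 TPM in Control. Hmgcs1, whose promoter carries the sterol element shown above, was at 26.9 and 20.4 TPM in KO, against 23.8 and 17.4 TPM in Control. For both enzymes the replicates differed more than the groups, and the log2 fold changes from counts were 0.01 and 0.03.

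Mevalonate is phosphorylated by Mvk and Pmvk and decarboxylated by Mvd. Mvk was at 10.8 and 14.7 TPM in KO, against 13.2 and 2.70 TPM in Control. In CPM the groups did not overlap, at 10.8 and 14.2 in KO and 9.65 and 2.79 in Control. The low value was that of Control replicate 2, and the log2 fold change of 1.01 had a 95% interval of -0.36 to 2.37. It was 0.37 without Control replicate 2 and 2.16 without Control replicate 1. Pmvk was at 23.1 and 15.8 TPM in KO, against 39.9 and 24.5 TPM in Control. Its groups did not overlap, and the interval ran from -1.20 to 0.27. Mvd had one of the lowest levels of the members, 4.22 and 7.03 TPM in KO, against 1.96 and 5.60 TPM in Control. Its groups overlapped (log2 fold change 0.53 ± 0.705 SE, adjusted p = 0.90 with edgeR, n = 2 each), and leaving out 1 library at a time or changing the test moved that value between -0.04 and 1.5.

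Idi1 interconverts the isoprenoid building blocks and Fdps joins them into farnesyl diphosphate, the branch point to sterols, ubiquinone and protein prenylation. Idi1 was at 23.1 and 20.9 TPM in KO, against 14.8 and 20.3 TPM in Control. Both KO values were above both Control values, by little over Control replicate 2. Fdps was the highest of the 18 enzymes at 47.8 and 55.6 TPM in KO, against 54.5 and 64.4 TPM in Control, and the groups overlapped. Of its exon bases, 26.7% are shared with Gm43738, a gene model on the same strand. The posterior SD that RSEM gave for its count was at most 0.13% of the mean in any library. Of the 7 genes of this arm, 5 had a log2 fold change above 0 and 2 below, with a median of 0.03, and none passed the test.

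Squalene is made by Fdft1, oxidized by Sqle and folded to lanosterol by Lss. Fdft1 was at 11.15 TPM in both KO libraries, against 9.16 and 16.0 TPM in Control. Sqle, the flavin monooxygenase regarded as a rate-limiting step, was at 21.1 and 17.4 TPM in KO, against 19.4 and 17.6 TPM in Control. Sqle thus had nearly the same level in both groups, with a log2 fold change of 0.05 and a 95% interval of -0.43 to 0.53. Lss was at 11.8 and 5.99 TPM in KO, against 3.83 and 17.6 TPM in Control. That scatter was not in its scaled counts, which were 17.2 and 19.6 CPM in KO and 13.7 and 21.3 CPM in Control. It came with the effective length that RSEM assigned to the gene, 2072 and 4522 bases in KO and 4941 and 1637 bases in Control.

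Trimming of lanosterol involves removal of methyl groups and shifts of double bonds. Cyp51, the demethylase that acts first, was at 14.3 and 12.3 TPM in KO, against 13.8 and 11.1 TPM in Control. Msmo1, which oxidizes the next methyl group, was at 9.91 and 9.24 TPM in KO, against 8.77 and 9.60 TPM in Control. Tm7sf2, a sterol reductase, was at 13.8 and 4.98 TPM in KO, against 4.18 and 9.29 TPM in Control. The first 2 were close to level across the libraries, while the log2 fold change of Tm7sf2 had a 95% interval of -2.04 to 1.79. Tm7sf2 also shares 12.1% of its exon bases with Vps51 on the same strand.

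Nsdhl, the dehydrogenase that with Msmo1 removes the methyl groups at carbon 4 of the sterol ring, was at 14.5 and 8.82 TPM in KO, against 19.7 and 20.7 TPM in Control. Both KO libraries lay below both Control libraries, and KO replicate 2 was the lowest. In CPM the values were 19.5 and 12.1 in KO and 27.2 and 29.1 in Control. The log2 fold change was -0.83 ± 0.298 SE (95% interval -1.52 to -0.14, unadjusted p = 0.0238, adjusted p = 0.413, edgeR quasi-likelihood test, n = 2 each). With DESeq2 the adjusted p was 0.0479. Over the alternatives that kept all libraries it ranged up to 0.589 (limma on log2(TPM + 1)). Without KO replicate 2 the log2 fold change was -0.52.

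Hsd17b7, which reduces the ketone left by NSDHL, had the lowest mean TPM of the members over the 4 libraries, though Nr1h3 was lower in KO alone. Hsd17b7 was at 2.27 and 2.35 TPM in KO, against 1.06 and 1.38 TPM in Control. Both KO libraries lay above both Control libraries, the opposite direction to Nsdhl, its neighbour in the pathway. The expected counts were 233 and 249 in KO and 69 and 82 in Control (log2 fold change 1.03 ± 0.555 SE, 95% interval -0.25 to 2.31, adjusted p = 0.570 with edgeR, n = 2 each). Whether the changes of Nsdhl and Hsd17b7 differ from each other was not tested.

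Ebp, Sc5d and Dhcr7 carry out the last isomerization, desaturation and reduction. Ebp was at 27.1 and 38.3 TPM in KO, against 35.6 and 56.9 TPM in Control. Sc5d was at 14.4 and 15.4 TPM in KO, against 16.3 and 5.26 TPM in Control. Dhcr7, which makes cholesterol from 7-dehydrocholesterol, was at 18.7 and 18.4 TPM in KO, against 22.4 and 26.7 TPM in Control. Only Dhcr7 of these 3 kept its groups apart in both TPM and CPM, with a log2 fold change of -0.39 and a 95% interval of -0.86 to 0.09. Of the 8 genes from lanosterol to cholesterol, 3 had a log2 fold change above 0 and 5 below, with a median of -0.13.

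**Figure D2:**
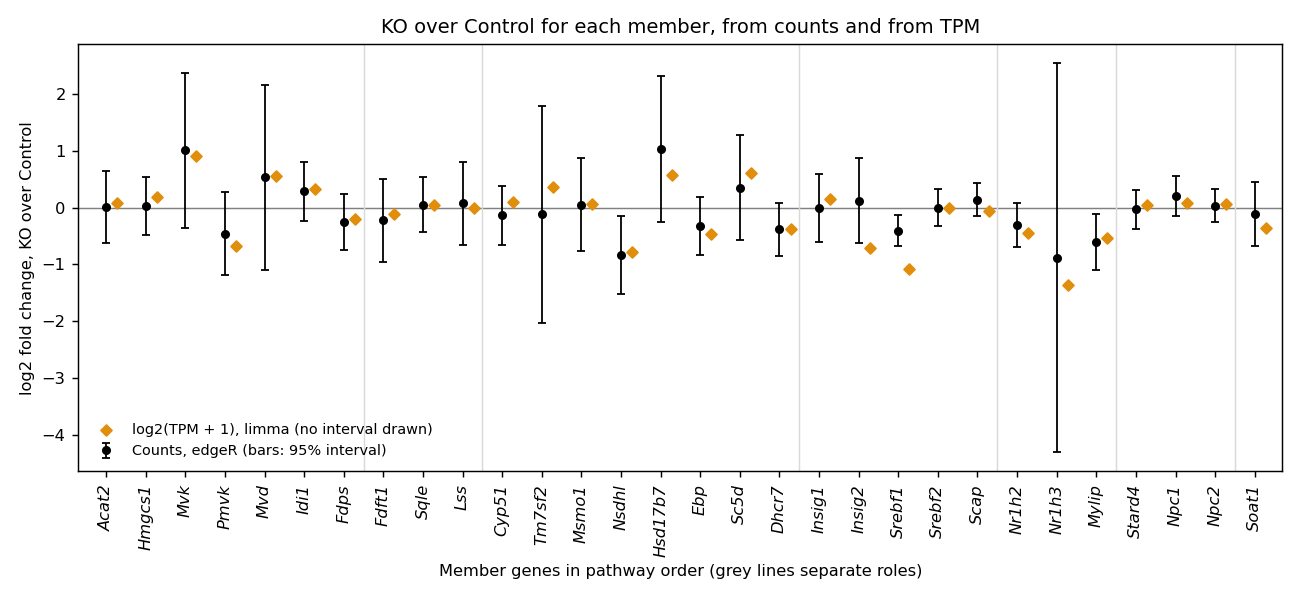
Log2 fold change of KO over Control (vertical) for the 30 genes in pathway order (horizontal), with black points from counts with edgeR and bars for the 95% interval, and orange diamonds from log2(TPM + 1) with limma. The bars of 3 genes, Nsdhl, Srebf1 and Mylip, exclude 0, all below it, and the diamonds of Srebf1 and Insig2 lie well below their points.

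Of the sensors, Srebf2 had the highest mean TPM of all members over the 4 libraries, though Nr1h2 averaged more in Control alone. Srebf2 was at 98.6 and 86.9 TPM in KO, against 82.4 and 105 TPM in Control. The KO values lay inside the Control range. In CPM it was at 267 and 268 in KO and 228 and 308 in Control, and its log2 fold change was -0.0010 ± 0.143 SE (adjusted p = 0.999 with edgeR, n = 2 each, 95% interval -0.33 to 0.33). Scap, the escort of SREBP proteins, was at 45.5 and 50.3 TPM in KO, against 53.3 and 46.7 TPM in Control. Its 95% interval of the log2 fold change was -0.16 to 0.43. Insig1, which retains SCAP and is itself an SREBP target, was at 15.1 and 16.9 TPM in KO, against 12.0 and 16.8 TPM in Control, with a log2 fold change of -0.01 and an interval of -0.61 to 0.59.

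Srebf1, whose products are best known for driving fatty acid synthesis genes and which is itself an LXR target, was at 43.7 and 35.2 TPM in KO, against 107 and 65.9 TPM in Control. In CPM it was at 102 and 97.5 in KO and 127 and 137.5 in Control. Both KO libraries were below both Control libraries on both scales. From counts the log2 fold change was -0.41 ± 0.118 SE (95% interval -0.68 to -0.13, unadjusted p = 0.00886, adjusted p = 0.297, edgeR quasi-likelihood test, n = 2 each), the smallest SE of the members. With DESeq2 the adjusted p was 0.00233. Over the alternatives that kept all libraries it ranged up to 0.476 (limma on log2(TPM + 0.1)).

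The size of the Srebf1 difference depended on the scale. The mean TPM in KO was 0.46 times that in Control, and the mean CPM 0.75 times. The effective length that RSEM gave to Srebf1, an average over its transcripts weighted by their estimated abundance, was 3327 and 3835 bases in KO and 1643 and 2820 bases in Control. Both KO libraries had the longer value. Srebf1 has 12 annotated transcripts of 367 to 4299 bases, so a longer value stands for a larger estimated share of long transcripts. On the TPM scale the log2 fold change was -1.08 (limma on log2(TPM + 1), adjusted p = 0.438), and with the effective length as an offset in edgeR it was -1.17 (adjusted p = 0.359).

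Insig2, the other INSIG gene, was at 8.82 and 12.2 TPM in KO, against 24.6 and 12.5 TPM in Control. In CPM the groups overlapped, at 12.7 and 15.8 in KO and 14.3 and 11.8 in Control. Its effective length was 2042 and 1795 bases in KO and 807 and 1270 bases in Control, with 14 annotated transcripts of 204 to 2697 bases. The log2 fold change was 0.12 from counts, -0.71 from TPM and -0.85 with the length offset, and none of the 3 passed its test. A mean effective length more than 1.4 times apart, a limit chosen after the values were seen, was found in 4 of the 30 genes (Tm7sf2 shorter in KO, Insig2, Srebf1 and Nr1h3 longer), against 9.41% of genes tested. Nsdhl and Mylip had nearly constant lengths, and their counts and TPM gave the same picture.

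**Figure D3:**
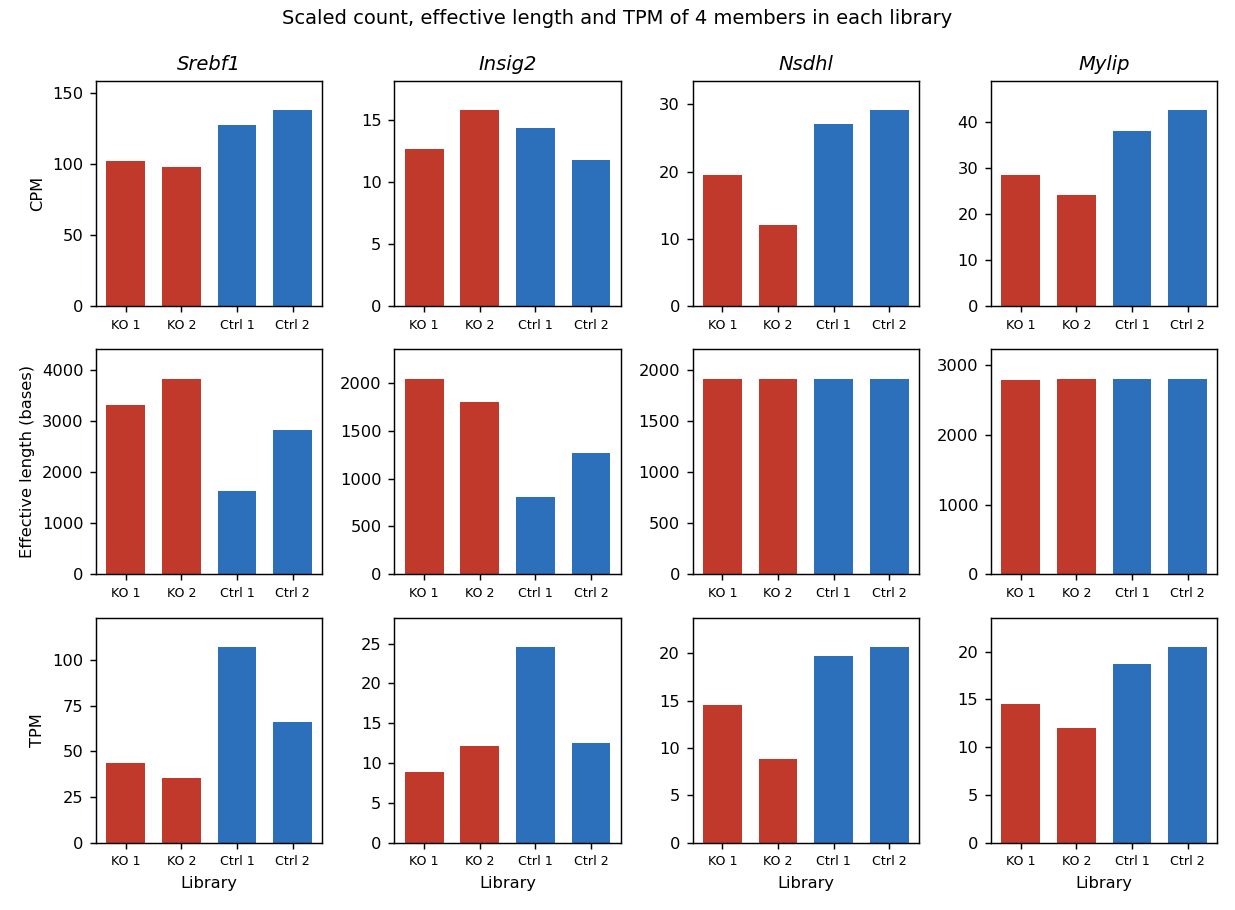
Scaled count in CPM (top row), effective length in bases (middle row) and TPM (bottom row) of Srebf1, Insig2, Nsdhl and Mylip in each library (horizontal), with KO in red left of Control in blue and all axes starting at 0. The KO bars of Srebf1 are lower in CPM and lower by more in TPM, where the effective length is longer in KO, while Nsdhl and Mylip have level lengths.

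In the LXR branch, Nr1h2 encodes LXR beta, the form found in most tissues, and Nr1h3 encodes LXR alpha. Nr1h2 was at 78.6 and 67.8 TPM in KO, against 81.0 and 124.6 TPM in Control. The groups did not overlap, though KO replicate 1 and Control replicate 1 were close, at 79.9 and 80.0 CPM (log2 fold change -0.31 ± 0.169 SE, 95% interval -0.70 to 0.08, adjusted p = 0.574 with edgeR, n = 2 each). Nr1h3 was at 0.67 and 1.38 TPM in KO, against 2.30 and 7.07 TPM in Control. It rested on 24 and 45 counts in KO and 47 and 34 in Control, with the effective length of Control replicate 2 at 283 bases against 1342 to 1479 in the others, so that its log2 fold change was -0.88 ± 1.48 SE (adjusted p = 0.935 with edgeR, n = 2 each, 95% interval -4.31 to 2.54).

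Mylip, an LXR target that marks lipoprotein receptors for degradation, was at 14.5 and 12.0 TPM in KO, against 18.7 and 20.5 TPM in Control. Both KO libraries were below both Control libraries. In CPM it was at 28.6 and 24.2 in KO and 37.9 and 42.5 in Control, and its log2 fold change was -0.61 ± 0.215 SE (unadjusted p = 0.0227, adjusted p = 0.408, edgeR quasi-likelihood test, n = 2 each, 95% interval -1.11 to -0.11). With DESeq2 the adjusted p was 0.0208. Over the alternatives that kept all libraries it ranged up to 0.616 (limma on log2(TPM + 1)). In CPM, both KO libraries were below both Control libraries in all 3 LXR branch genes, an arrangement found in 19.3% of all genes tested. In Nr1h2 the nearest libraries were the 2 given above, nearly level, and Nr1h3 rested on few counts. The median log2 fold change of the 3 was -0.61.

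Of the sterol carriers, Npc2, the soluble lysosomal protein that takes up cholesterol freed from lipoproteins, was at 72.8 and 84.5 TPM in KO, against 73.2 and 76.2 TPM in Control (log2 fold change 0.03 ± 0.127 SE, 95% interval -0.26 to 0.33, adjusted p = 0.977 with edgeR, n = 2 each). Npc1, the membrane protein that receives it, was at 24.5 and 29.1 TPM in KO, against 27.7 and 23.2 TPM in Control. Stard4, a cytosolic sterol carrier and SREBP target, was at 20.7 and 21.8 TPM in KO, against 21.2 and 19.8 TPM in Control. In all 3 the TPM ranges of the groups overlapped. In CPM Npc1 did not, at 68.7 and 79.6 in KO and 67.8 and 61.2 in Control, with a 95% interval of the log2 fold change of -0.15 to 0.56. Soat1, which esterifies cholesterol for storage, was at 7.0 and 18.4 TPM in KO, against 26.1 and 8.34 TPM in Control. Its CPM values were closer together, 27.3 and 38.9 in KO and 38.3 and 33.1 in Control, with effective lengths of 2033 to 5540 bases.

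Synthesis was then set against 6 genes of LXR signalling, lysosomal sterol transport and esterification (Nr1h2, Nr1h3, Mylip, Npc1, Npc2 and Soat1). Stard4, an SREBP target, was in neither sum. The 18 synthesis enzymes summed to 322.9 and 301.4 TPM in KO and to 332.9 and 345.1 TPM in Control. The other 6 genes summed to 198.2 and 213.1 TPM in KO and to 228.9 and 259.9 TPM in Control. The ratio of the sums was 1.63 and 1.41 in KO and 1.45 and 1.33 in Control in TPM, and 1.18 and 1.06 in KO and 1.17 and 1.04 in Control in CPM, so the ratio of sums overlapped between the groups on both scales. Sums are led by the most abundant genes. With each gene weighted alike, the mean log2(TPM + 1) of the enzymes minus that of the 6 genes was -0.14 and -0.60 in KO and -0.87 and -0.86 in Control, and there the groups did not overlap. Equal weight gives Nr1h3 as much say as any other of the 6 genes. Nr1h3 was at 0.67 and 1.38 TPM in KO and 2.30 and 7.07 TPM in Control, on few counts. Its effective length was 283 bases in Control replicate 2, so this separation leans on a gene near the floor. These values took no test. All 30 members summed to 753.4 and 737.7 TPM in KO and to 862.4 and 871.5 TPM in Control. Without Srebf1 the sums were 709.8 and 702.5 TPM in KO and 755.3 and 805.6 TPM in Control, and in CPM the sums over all 30 overlapped at 1370 and 1439 in KO and 1415 and 1517 in Control.

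**Figure D4:**
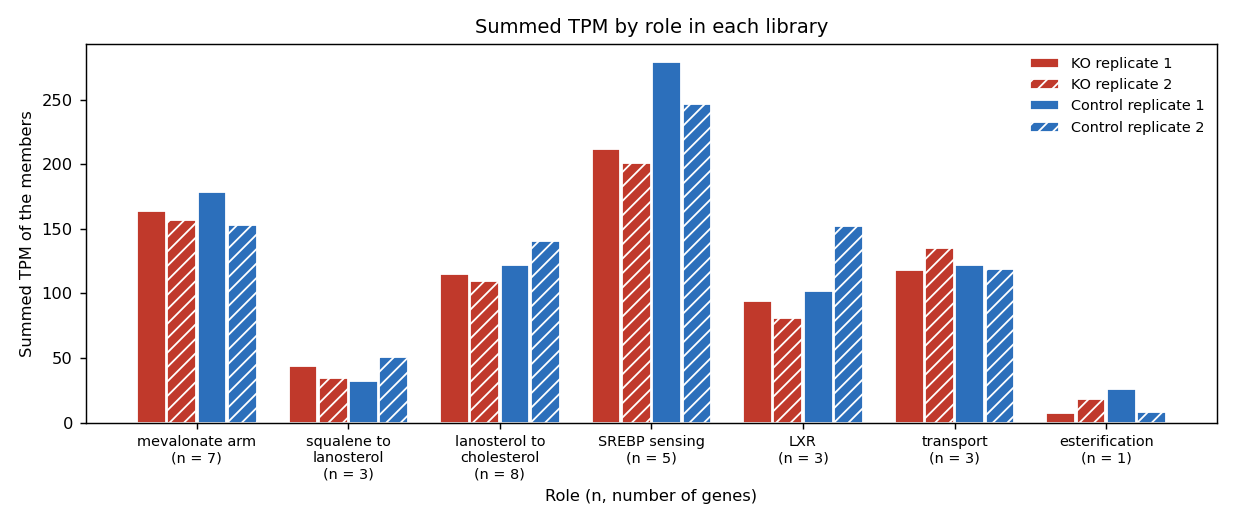
Summed TPM (vertical) of the member genes of each role (horizontal, with the number of genes) in the 4 libraries, KO in red left of Control in blue, replicate 2 hatched. The SREBP sensing genes reach 211.7 and 201.5 TPM in KO and 279.4 and 246.7 TPM in Control, while the mevalonate arm overlaps at 163.7 and 157.0 TPM in KO and 178.8 and 153.1 TPM in Control. Without Srebf1 the sensing genes sum to 168.0 and 166.3 TPM in KO and 172.2 and 180.8 TPM in Control. In CPM, not drawn, the sensing genes with Srebf1 overlap at 529.1 and 551.8 in KO and 516.2 and 604.1 in Control.

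Across the members, the edgeR quasi-likelihood test with Benjamini-Hochberg adjustment called 0 genes lower and 0 higher in KO at an adjusted p under 0.05, where 0.212% of all genes tested were called lower and 0.451% higher. At an unadjusted p under 0.05, 3 members (10%) were lower, against 4.61% of all genes, and 0 were higher, against 5.81%. DESeq2 called the same 3 members lower at an adjusted p under 0.05, against 3.24% of genes, and 0 higher, against 3.95%. Both KO libraries were below both Control libraries in CPM in 8 members (26.7%), against 19.3% of all genes, and above them in 4 (13.3%), against 22.7%. The members were few, and no difference of these shares from the background was tested. Erythroid and B lineage markers moved with genotype as given above, and their part in the values of Srebf1, Nsdhl and Mylip was not tested.

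How much difference these data allow is given by the intervals. In 21 of the 30 genes the 95% interval stayed within a 2-fold change in either direction, and in Srebf2, Scap, Stard4 and Npc2 within 0.5 on the log2 scale. The SE of the log2 fold change ranged from 0.118 to 1.48 with a median of 0.234. In 23 of 30 members (76.7%) the difference between the groups was smaller than a gap between replicates of one group, against 70.3% of all genes. The exceptions were Nsdhl, Hsd17b7, Ebp, Dhcr7, Srebf1, Nr1h3 and Mylip.

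A further 34 genes of neighbouring steps were listed, among them the prenyl transferases, the ubiquinone and dolichol branches, the SREBP proteases, other sterol carriers and the oxysterol enzymes, and 32 could be tested. With edgeR 0 passed at an adjusted p under 0.05 and 0 at an unadjusted p under 0.05, DESeq2 called 0, and the median log2 fold change was -0.10. The smallest p-values were those of Lipa, the lysosomal lipase that frees cholesterol from esters, Coq2, a transferase of ubiquinone synthesis, and Dhdds, a subunit of the dolichol-making enzyme. Lipa was at 22.5 and 22.4 TPM in KO, against 25.9 and 29.3 TPM in Control, with a log2 fold change of -0.43 (unadjusted p = 0.0540, edgeR). Coq2 had a log2 fold change of -0.37 (unadjusted p = 0.0617, edgeR) and Dhdds one of -0.27 (unadjusted p = 0.120, edgeR).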

How the data were processed

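RNA from sorted bone marrow cells kept in RNAlater was extracted with an RNeasy kit, and polyadenylated RNA was made into directional NEBNext Ultra II libraries. STAR, RSEM and mm10 (GRCm38) are named in the submitters' processing notes. Their versions, the annotation and the strand setting of the counting were not given in the sources used here. The deposited expected counts are estimated counts that RSEM divides among genes sharing reads, with no normalization, and the authors' TPM scales them by effective length. GENCODE M21 gave symbols to 55141 of the 55401 models.

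Expected counts were rounded and tested over all genes in edgeR 4.0.16 (R 4.3.3) by its quasi-likelihood F test (TMM factors 0.985 to 1.01, filterByExpr with a minimum count of 10, Benjamini-Hochberg adjustment, two-sided). CPM are counts scaled to library size, and the SE is the unshrunk coefficient over the square root of F. DESeq2 1.42.0, the study's tool, limma 3.58.1 on log2(TPM + 1) and the other alternatives are compared in the closing section. An exact permutation test of 1 gene has a smallest p of 0.333 at this size. Counts of replicates were further apart than counting noise allows in 71.9% of genes in KO and 73.5% in Control, so no library was treated as a second copy of another, which does not show that they came from separate mice.

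The members and lists were chosen with earlier results of these data known. All 30 members were named, with full statistics for those at an unadjusted p under 0.05, the 3 with the highest and the 3 with the lowest mean TPM. Further pathway genes were named where called or among the 3 smallest p-values.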

Additional observations from a re-analysis of the deposited data

How the results depend on the processing

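With DESeq2, 3 members (Nsdhl, Srebf1 and Mylip, at log2 fold changes of -0.84, -0.41 and -0.61) passed an adjusted p of 0.05, all lower in KO, and at an unadjusted p under 0.05 there were 4 lower (Dhcr7 added) and 1 higher (Hsd17b7). Over all genes it gave 503 lower and 613 higher at an adjusted p under 0.05, against 31 and 66 with edgeR. No other alternative called a member at an adjusted p under 0.05. Of the 3 members lower at an unadjusted p under 0.05, 1 was left with the effective length offset, 1 with limma on log2(TPM + 1) and 1 on log2(TPM + 0.1), and leaving out 1 library at a time gave 0 to 5 lower (0 without KO replicate 2, 5 without Control replicate 1) and 0 to 2 higher. Over all genes, no filter on low counts gave 85 lower and 111 higher, the offset 1 and 3, limma on log2(TPM + 1) 0 and 5, and on log2(TPM + 0.1) 0 and 0. Leaving out 1 library gave 18 to 144 lower and 24 to 238 higher. The members' median log2 fold change was 0.0398 on log2(TPM + 0.1) and -0.0437 to -0.0172 when 1 library was left out. The causes were not tested. The Cpt1a call was lost with the length offset and both limma fits and held under the other 9 alternatives. In 13 members the sign was the same under all 12 alternatives, Nsdhl, Srebf1 and Mylip among them. With the replicate number as a block, 36 genes were lower and 62 higher, 0 members were called, and 3 members were lower at an unadjusted p under 0.05. The numbers did not pair the libraries (correlation of deviations -0.0239). With 2 libraries a group and a biological coefficient of variation of 0.471, small differences in genes of few counts, such as Nr1h3, were not detectable at this depth.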
